A study of Mus musculus with 32 samples.

Results

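Clock output genes carry the rhythm of the circadian clock to the rest of the transcriptome, and 8 of them are described here: Dbp, Tef, Hlf, Nfil3, Ciart, Bhlhe40, Bhlhe41 and Usp2. They were taken by symbol from a table of 24421 genes, and all 8 passed the filter on low counts in every comparison. Of the 8, Usp2 encodes a ubiquitin-specific protease and not a transcription factor. The study sequenced RNA of eye-moving extraocular muscle (EOM) and of the leg muscle tibialis anterior (TA). It also sequenced brain samples given as oculomotor neurons (CN3) and as abducens motor neurons (CN6). Each tissue has 4 libraries labelled albino, from B6(CG)Tyr(c-2J)/J mice with a changed tyrosinase gene, and 4 labelled C57BL/6, which is pigmented, 32 libraries in all. The labels name no treatment, age, sex, litter or time of day of collection, and do not say whether replicates came from separate animals. A p-value then measures only the spread between these libraries. Because the time of collection was not given, genotype and time of day cannot be told apart in any difference between the strains.

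In the mammalian clock, CLOCK and BMAL1 (the product of Arntl) bind E-box sequences and switch on the Per and Cry genes, whose proteins feed back on them. Dbp, Tef and Hlf are PAR bZIP activators that bind D-box sites, and Nfil3 is a bZIP repressor of the same sites. Bhlhe40 and Bhlhe41 are E-box repressors, Ciart is a repressor of CLOCK and BMAL1, and the Usp2 transcript is itself clock-controlled. In skeletal muscle, such genes are known to cycle over the day.

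The kind of tissue was checked first with muscle and neuron markers, and in 8 of the 32 libraries it went against the label. Brain markers filled the first 2 libraries of both albino muscles (EOM and TA, numbered 1 and 2). Muscle markers filled the last 2 of both albino brain samples (CN3 and CN6, numbered 3 and 4). Tests therefore used the 24 libraries whose label and markers match, which leaves 2 albino and 4 C57BL/6 libraries per tissue. The same tests were run with all 4 albino libraries that the markers give to a tissue, here called the marker groups, and the counts and log2 fold changes of the 8 genes are given for both in each muscle, in the brain samples together and for the differences between tissues. Albino libraries held 18996461 to 34550801 counts and C57BL/6 libraries 18544334 to 44254021. Myh13, the eye muscle myosin, read 3742 to 4459 CPM (counts scaled to a common library total) in albino EOM and 4272 to 4980 CPM in C57BL/6 EOM by the marker groups, and at most 94.0 CPM in TA. The brain samples are less secure. In the marker groups, 6 motor neuron markers summed to 44.9 to 102 CPM in albino CN3 against 4.21 to 7.34 CPM in C57BL/6 CN3, and 4 hindbrain markers to 4.3 to 35.7 CPM in albino CN6 against 39.3 to 52.2 CPM in C57BL/6 CN6.

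E-boxes in the promoters are shown because the clock acts on several of these genes through them. RefSeq promoters of build GRCm38.p6, read for 250 bases before each start, were found for 7 of the 8 genes, with 8 starts. The E-box letters CACGTG, which read the same on both strands, are in 6.02% of 32851 promoters. The window of Ciart holds 3 of them, with their first bases 116, 58 and 44 bases before the start. Both starts of Tef have 1, at 127 and 138 bases, and Bhlhe41 has 1 at 153 bases. The windows of Dbp, Hlf, Nfil3 and Usp2 hold none, which says nothing of sites elsewhere in these genes. With both strands searched, none of the 8 windows holds CACGTT (3.85% of promoters) or the D-box letters TTATGTAA or TTACGTAA (0.931% of promoters), and AGGTCA, a half-site of ROR and REV-ERB factors (14.0% of promoters), is found once, 12 bases before the start of Nfil3. Below are the stretches with an E-box (in capitals) that lie outside protein-coding exons of GENCODE, 5′ to 3′, for Ciart (chr3:95882252-95882478, minus strand), the second start of Tef (chr15:81811164-81811413, plus strand) and Bhlhe41 (chr6:145865559-145865670, minus strand).
Ciart: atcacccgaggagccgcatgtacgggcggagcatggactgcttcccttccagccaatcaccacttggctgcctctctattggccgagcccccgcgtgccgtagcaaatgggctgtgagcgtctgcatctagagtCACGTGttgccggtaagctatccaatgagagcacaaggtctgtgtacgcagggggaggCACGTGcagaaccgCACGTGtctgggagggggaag
Tef: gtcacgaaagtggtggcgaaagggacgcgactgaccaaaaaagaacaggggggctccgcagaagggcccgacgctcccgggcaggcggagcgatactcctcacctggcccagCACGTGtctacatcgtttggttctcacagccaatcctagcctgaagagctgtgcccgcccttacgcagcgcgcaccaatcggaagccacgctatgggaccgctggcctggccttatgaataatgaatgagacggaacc
Bhlhe41: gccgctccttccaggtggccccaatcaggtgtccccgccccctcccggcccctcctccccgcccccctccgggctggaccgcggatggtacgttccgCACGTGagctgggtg

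In albino EOM 7 of the 8 genes were lower than in C57BL/6 EOM and 1, the repressor Nfil3, was higher. For all 8 the albino libraries lay outside the C57BL/6 range, but the share of all genes that separate so was not counted. The fall was deepest in Ciart, Hlf and Dbp. Calls rest on edgeR's quasi-likelihood test with Benjamini-Hochberg adjustment over all genes and a threshold of 0.05, which 32% of the 15397 genes tested passed. In the marker groups the same counts, 1 higher and 7 lower, stood against 38.9% of genes called, and the log2 fold changes of Hlf, Tef, Ciart, Bhlhe40, Bhlhe41 and Usp2 were −2.31, −1.14, −3.79, −0.70, −1.14 and −1.27.

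Dbp, an activator at D-boxes (chr7:45705088-45710203, mm10, plus strand), read 14.7 and 14.9 CPM in albino EOM, against 72.1, 78.5, 62.3 and 74.05 CPM in C57BL/6 EOM. Its highest albino library was thus far under the lowest C57BL/6 library. The log2 fold change was −2.26 ± 0.13 (SE, adjusted p = 0.000129), and −2.43 ± 0.12 in the marker groups. Hlf (chr11:90336536-90390895, minus strand), the second PAR bZIP factor, read 16.57 and 13 CPM in albino EOM, against 78.8, 79.2, 85.3 and 75.4 CPM in C57BL/6 EOM. The C57BL/6 libraries lay close together and well above both albino ones, with a log2 fold change of −2.41 ± 0.10 (adjusted p = 7.02e-05). Tef (chr15:81802421-81826863, plus strand), the third of the family, read 192.5 and 196 CPM in albino EOM, against 446, 417, 441 and 462 CPM in C57BL/6 EOM. Its fall was shallower than that of its 2 relatives, at −1.17 ± 0.08 on the log2 scale (adjusted p = 0.000294).

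Nfil3 (chr13:52967209-52981073, minus strand), the repressor of the sites that those activators use, went the other way. It read 50.7 and 48.7 CPM in albino EOM, against 22.0, 19.7, 23.8 and 25.7 CPM in C57BL/6 EOM. Every albino library was above every C57BL/6 one, with a log2 fold change of 1.14 ± 0.11 (adjusted p = 0.000576) and 1.12 ± 0.10 in the marker groups.

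Ciart (chr3:95878503-95882251, minus strand), the gene with 3 E-boxes in the window shown above, read 1.06 and 1.30 CPM in albino EOM, against 14.4, 15.4, 15.2 and 13.03 CPM in C57BL/6 EOM. Even the lowest C57BL/6 library was far above both albino ones. The log2 fold change was −3.60 ± 0.18 (adjusted p = 0.000105), the widest of the 8 genes. Bhlhe41 (chr6:145858243-145865558, minus strand) read 26.2 and 24.4 CPM in albino EOM, against 51.2, 60.2, 58.8 and 57.4 CPM in C57BL/6 EOM, a log2 fold change of −1.15 ± 0.09 (adjusted p = 0.000315). Its paralog Bhlhe40 (chr6:108660629-108666925, plus strand) differed less. It read 62.6 and 88.2 CPM in albino EOM, against 97.9, 125, 101 and 115 CPM in C57BL/6 EOM, with −0.52 ± 0.17 on the log2 scale (adjusted p = 0.0417). That call rests on single libraries: without albino EOM 3, C57BL/6 EOM 2 or C57BL/6 EOM 4 the adjusted p was 0.212, 0.0972 or 0.0895, while in the marker groups it was 0.0189. The protease gene Usp2 (chr9:44067021-44095627, plus strand) read 119 and 171 CPM in albino EOM, against 289, 288, 321 and 286 CPM in C57BL/6 EOM, with a log2 fold change of −1.01 ± 0.15 (adjusted p = 0.00187).

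**Figure D1:**
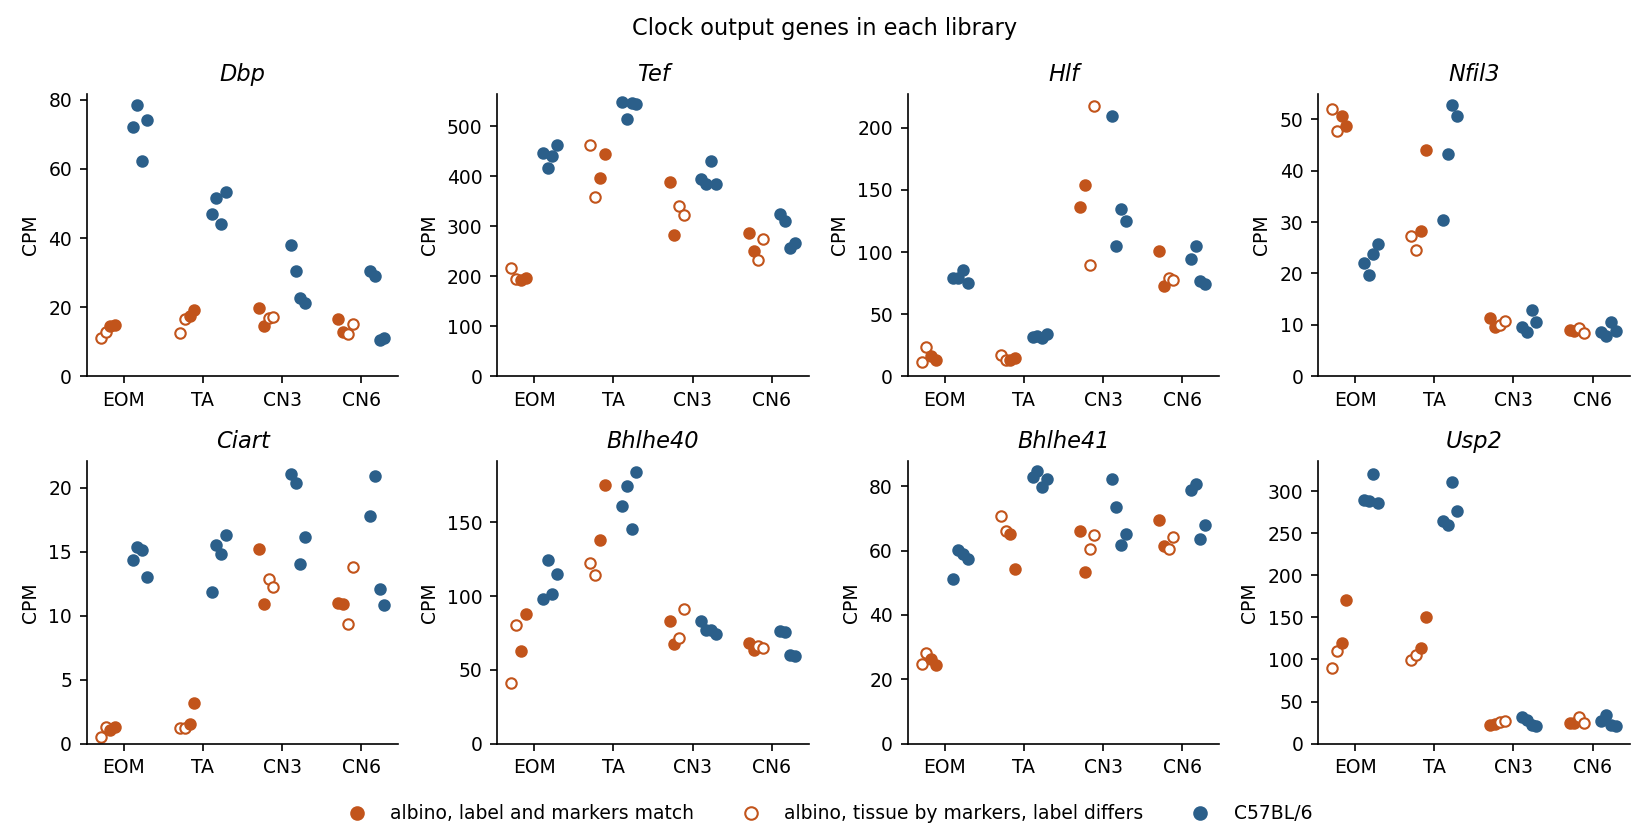
CPM of the 8 genes (y axis, linear) in each of the 32 libraries, by tissue (x axis), with albino libraries left of C57BL/6 libraries. Open points are albino libraries placed by markers against their label. In EOM the Ciart points of albino libraries sit at 1.31 CPM or less and those of C57BL/6 at 13.03 CPM or more, and in CN3 and CN6 most points of both strains lie side by side.

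In albino TA, the limb muscle, 6 of the 8 genes were lower than in C57BL/6 TA, 0 were higher and 2, Nfil3 and Bhlhe40, were not called, where 31.1% of the 13295 genes tested were called. By the marker groups 7 were lower, Nfil3 among them, where 33.7% of genes were called. The log2 fold changes there were −1.56 for Dbp, −1.14 for Hlf, −0.36 for Tef, −2.9997 for Ciart, −0.27 for Bhlhe40, −0.35 for Bhlhe41 and −1.24 for Usp2.

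Dbp read 17.3 and 19.2 CPM in albino TA, against 47.0, 51.7, 44.0 and 53.3 CPM in C57BL/6 TA (log2 fold change −1.45 ± 0.09, adjusted p = 1.48e-06). Hlf read 13.2 and 14.6 CPM in albino TA, against 31.15, 31.99, 30.9 and 34.2 CPM in C57BL/6 TA (−1.24 ± 0.09, adjusted p = 2.45e-06). For both, the albino libraries stayed under the C57BL/6 range. Tef read 397 and 445 CPM in albino TA, against 548, 516, 547 and 545 CPM in C57BL/6 TA, a log2 fold change of only −0.39 ± 0.07 (adjusted p = 0.00082). The groups of Tef did not overlap, but stood nearer to each other than in EOM.

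Nfil3 read 28.2 and 43.95 CPM in albino TA, against 30.3, 43.2, 52.8 and 50.7 CPM in C57BL/6 TA. These ranges overlap, and the log2 fold change of −0.33 ± 0.20 was not called (adjusted p = 0.237). With all 4 albino TA libraries of the marker groups it was −0.51 ± 0.18 and called lower (adjusted p = 0.0448), as it was without C57BL/6 TA 1, the lowest library of its group (adjusted p = 0.0381).

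Among the repressors, Ciart read 1.51 and 3.15 CPM in albino TA, against 11.9, 15.5, 14.8 and 16.3 CPM in C57BL/6 TA. It again had the widest difference of the 8 genes, at −2.69 ± 0.24 on the log2 scale (adjusted p = 1.08e-05). Bhlhe41 read 65.1 and 54.4 CPM in albino TA, against 82.9, 84.8, 79.8 and 82.2 CPM in C57BL/6 TA (−0.49 ± 0.08, adjusted p = 0.000709). Bhlhe40, at 138 and 175 CPM in albino TA against 161, 175, 146 and 184.5 CPM in C57BL/6 TA, overlapped between the strains (−0.12 ± 0.10, adjusted p = 0.368). Usp2 read 114 and 150 CPM in albino TA, against 265, 260, 310 and 276 CPM in C57BL/6 TA, with a log2 fold change of −1.11 ± 0.11 (adjusted p = 2.14e-05).

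Markers of other cell types and ribosomal reads also differed between the strains in muscle, and their part in these results was not tested. The 6 fibroblast and tendon markers summed to 3544 to 3661 CPM in albino EOM against 4695 to 5360 CPM in C57BL/6 EOM, and to 1157 to 1203 CPM in albino TA against 428 to 614 CPM in C57BL/6 TA. They were below the C57BL/6 range in EOM and above it in TA. The 8 macrophage markers summed to 605 to 717 CPM in albino EOM and 484 to 600 CPM in C57BL/6 EOM, and to 135 to 166 CPM in albino TA and 33.0 to 40.0 CPM in C57BL/6 TA. The 4 endothelial markers were also above the C57BL/6 range in both albino muscles, and none of these 18 markers was at 0 in any muscle library. Of 7 neuron markers, summed at 1.78 to 5.45 CPM in albino TA and 0.0715 to 0.7998 CPM in C57BL/6 TA, 0 and 3 were at 0 in the albino TA libraries and 5 or 6 in each C57BL/6 TA library. Reads of Rn45s, the ribosomal RNA precursor, stood at 17670 and 8432 CPM in albino TA against 2028 to 4833 CPM in C57BL/6 TA, and at 4185 and 3464 CPM in albino EOM against 1302 to 13120 CPM in C57BL/6 EOM. In the library labelled albino CN6 4, placed in TA by markers, they were 10.6% of counts. Of 4 Y-linked genes, the summed level was 160 to 170 CPM in albino EOM against 201 to 312 CPM in C57BL/6 EOM. In TA it was 142 to 155 CPM in albino against 160 to 206 CPM in C57BL/6. In brain it went the other way, at 172 to 194 against 119 to 161 CPM in CN3 and 154 to 181 against 140.5 to 147 CPM in CN6. In tissue RNA, fewer cells of a type and less RNA per cell cannot be told apart.

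The difference between the muscles was tested itself. In EOM the genotype difference was wider than in TA for Hlf (by −1.18 ± 0.13 on the log2 scale, adjusted p = 8.77e-05), Tef (−0.79 ± 0.10, adjusted p = 0.000484), Dbp (−0.81 ± 0.16, adjusted p = 0.00781) and Bhlhe41 (−0.67 ± 0.13, adjusted p = 0.00552). Nfil3 differed in the opposite direction by 1.46 ± 0.28 (adjusted p = 0.00634). These 5 genes compare with 7.73% of the 15670 genes tested, and the same 5 were called in the marker groups, where 13% of genes were. The differences for Ciart (−0.91 ± 0.34, adjusted p = 0.116), Bhlhe40 (−0.41 ± 0.21, adjusted p = 0.255) and Usp2 (0.10 ± 0.19, adjusted p = 0.812) were not called. Dbp lost its call when all 4 tissues shared 1 estimate of the spread (adjusted p = 0.28), and Ciart gained one without albino TA 3 (adjusted p = 0.0204) or with DESeq2 (adjusted p = 0.0496). Bhlhe40 gained one without albino EOM 4 (−0.74, adjusted p = 0.0452). The marker groups gave differences of −1.11 for Hlf, −0.73 for Tef, −0.82 for Dbp, −0.74 for Bhlhe41, 1.68 for Nfil3, −0.74 for Ciart, −0.38 for Bhlhe40 and 0.02 for Usp2.

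**Figure D2:**
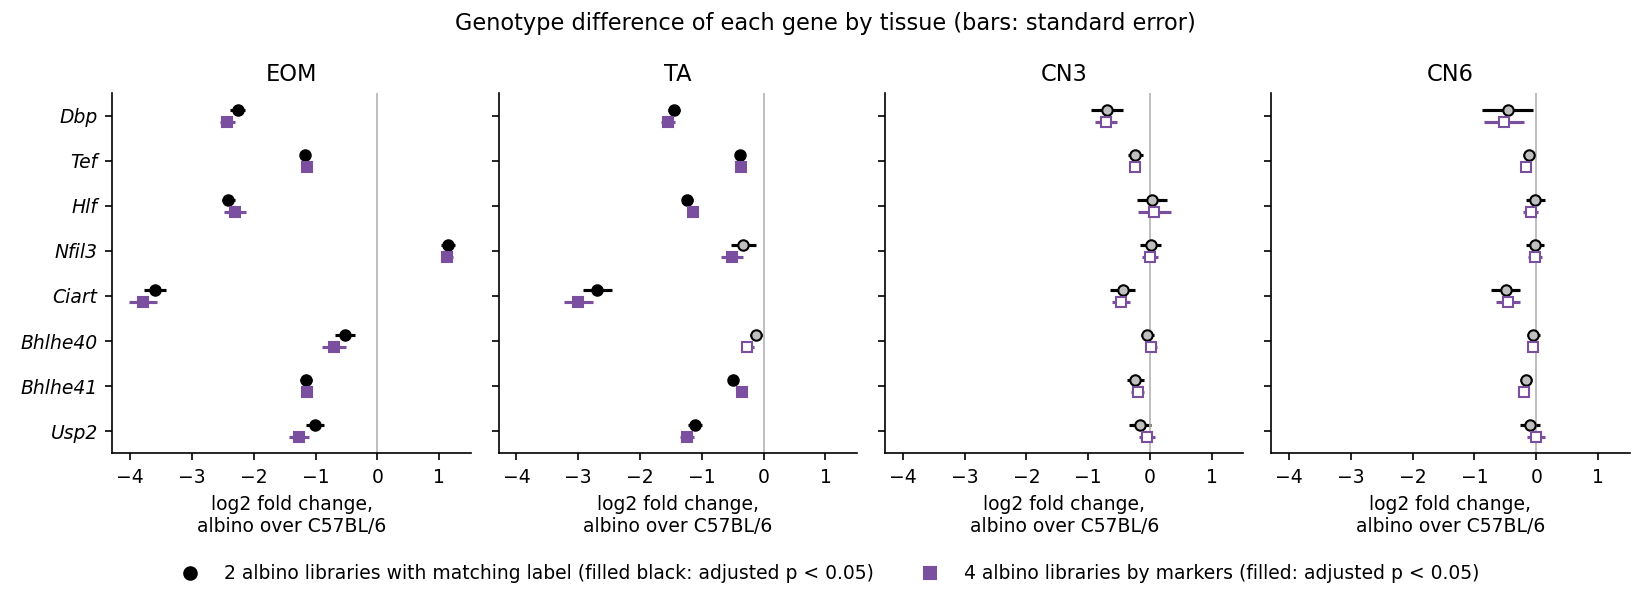
Log2 fold change of albino over C57BL/6 (x axis) for the 8 genes in each tissue, with standard errors, from the 2 albino libraries with a matching label (circles) and from the 4 of the marker groups (squares). Filled black circles and filled squares passed an adjusted p of 0.05, and grey or open ones did not. Nfil3 in EOM, at 1.14, is the 1 called value right of 0.

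In the brain samples 0 of the 8 genes were called, in CN3, in CN6 or over both together. In CN3 0.0804% of 16171 genes were called, in CN6 0.0246% of 16268 and over both together 0.355% of 16604. In the marker groups these shares were 0.283%, 0.12% and 5.1%, again with 0 of the 8 genes. DESeq2 and limma voom also called 0 of the 8. With a block for replicate number, edgeR's test called 2 of them lower over both together. These were Dbp (−1.02, adjusted p = 0.0284) and Ciart (−0.74, adjusted p = 0.0342). At an unadjusted p under 0.05, edgeR's test passed 1 of the 8 in CN3, 0 in CN6 and 1 over both together, and in the marker groups 3, 2 and 4. Over all genes that level was passed by 1344 of 16171, 1523 of 16268 and 2276 of 16604, and in the marker groups by 2577 of 15880, 2025 of 15879 and 3683 of 16342.

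Dbp read 19.8 and 14.4 CPM in albino CN3, against 38.0, 30.4, 22.5 and 21.2 CPM in C57BL/6 CN3, and 16.6 and 12.9 CPM in albino CN6, against 30.5, 28.9, 10.5 and 11.1 CPM in C57BL/6 CN6. In CN3 the albino libraries were below the C57BL/6 range, and in CN6 they lay inside it. Over both together its log2 fold change was −0.58 ± 0.29 (adjusted p = 0.413), with a 95% interval of −1.21 to 0.05. Ciart read 15.2 and 10.96 CPM in albino CN3, against 21.1, 20.4, 14.0 and 16.1 CPM in C57BL/6 CN3, and 10.98 and 10.94 CPM in albino CN6, against 17.8, 20.9, 12.1 and 10.8 CPM in C57BL/6 CN6. Its groups overlapped in both, with a log2 fold change of −0.46 ± 0.18 over both together (adjusted p = 0.279, 95% interval −0.85 to −0.08). Tef, Bhlhe41 and Usp2 had log2 fold changes of −0.17 ± 0.09, −0.19 ± 0.09 and −0.13 ± 0.13, and those of Hlf, Nfil3 and Bhlhe40 were 0.01 ± 0.16, −0.0022 ± 0.12 and −0.04 ± 0.08. Over both together, the marker groups gave −0.61 for Dbp, −0.47 for Ciart, −0.20 for Tef and for Bhlhe41, −0.02 for Usp2 and for Bhlhe40, and −0.01 for Hlf and for Nfil3. For Nfil3 the interval was −0.26 to 0.25, which does not reach its value in EOM. Markers of other tissue moved with the strains here too, since 3 pituitary markers summed to at most 2.67 CPM in albino CN3 and CN6 and to 7.23 to 467 CPM in those of C57BL/6. Their part was not tested.

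Hlf, Tef and Bhlhe40, which were not called in the brain samples either, are given here by library. Hlf read 136 and 154 CPM in albino CN3, against 210, 105, 135 and 125 CPM in C57BL/6 CN3, so the albino libraries lay inside a C57BL/6 range with a high first library. Tef read 388 and 283 CPM in albino CN3, against 395, 384, 430.5 and 384 CPM in C57BL/6 CN3, and 286 and 250 CPM in albino CN6, against 325, 310, 256.5 and 266 CPM in C57BL/6 CN6. In both, 1 albino library was inside the C57BL/6 range and 1 below it. Bhlhe40 read 82.9 and 67.3 CPM in albino CN3, against 83.2, 77.3, 77.35 and 74.1 CPM in C57BL/6 CN3, and 68.4 and 63.5 CPM in albino CN6, against 76.25, 75.5, 59.8 and 59.65 CPM in C57BL/6 CN6. The strains overlapped in both places.

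Within C57BL/6 the brain libraries were not alike. In CN3 and again in CN6, Dbp, Ciart, Usp2 and Bhlhe41 read more in each library numbered 1 and 2 than in either numbered 3 and 4. Nfil3 read less in those numbered 1 and 2. Hlf, Tef and Bhlhe40 read more in those numbered 1 and 2 in CN6 but did not split so in CN3. The share of all genes that split in this way was not counted. In CN6, Usp2 read 27.1 and 34.2 CPM in the libraries numbered 1 and 2, and 22.1 and 21.2 CPM in those numbered 3 and 4. Nfil3 read 8.60 and 7.90 CPM in the first pair and 10.5 and 8.79 CPM in the other. The labels do not say what a number stands for, and this pattern was not tested. By markers, all albino brain libraries are numbered 1 or 2 and all albino muscle libraries 3 or 4, in the marker groups too. Number and kind of tissue thus cannot be told apart among albino libraries. Dbp in both albino CN6 libraries with a matching label read below C57BL/6 CN6 1 and 2 and above C57BL/6 CN6 3 and 4.

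Among albino libraries, muscle and brain also differ in library number, as given above, and the 2 cannot be told apart. Set against brain, the genotype difference in muscle was wider for 6 of the 8 genes, where 29.9% of 17432 genes were called. They were Ciart (−2.60 ± 0.27, adjusted p = 1.99e-06), Hlf (−1.76 ± 0.19, adjusted p = 2.47e-06), Dbp (−1.20 ± 0.32, adjusted p = 0.00742), Usp2 (−0.85 ± 0.18, adjusted p = 0.00111), Bhlhe41 (−0.55 ± 0.11, adjusted p = 0.000965) and Tef (−0.52 ± 0.10, adjusted p = 0.000621). With a block for replicate number Dbp lost its call (−0.73, adjusted p = 0.0655). The muscle value is the mean over EOM and TA. For Nfil3 these went opposite ways, at 1.14 and −0.33, and at 1.12 and −0.51 in the marker groups. Its mean thus describes neither muscle. The values for Nfil3 (0.49 ± 0.20, adjusted p = 0.0703) and Bhlhe40 (−0.20 ± 0.14, adjusted p = 0.319) were not called. In the marker groups, where 37.6% of genes were called, both were (0.40 ± 0.15, adjusted p = 0.0433, and −0.39 ± 0.15, adjusted p = 0.0351), and the other 6 stood at −2.86 for Ciart, −1.64 for Hlf, −1.30 for Dbp, −1.15 for Usp2, −0.47 for Bhlhe41 and −0.47 for Tef. Nfil3 was also called without C57BL/6 TA 3 (adjusted p = 0.046) or albino TA 3 (adjusted p = 0.0263), and Bhlhe40 without albino EOM 4 (−0.36, adjusted p = 0.0479).

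Beside the core loop of the clock, the output genes can be set beside genes that move with and against them. Of 13 core genes, 3 were higher and 6 lower in albino EOM, and of 12 tested in TA, 3 were higher and 7 lower, beside 32% and 31.1% of all genes called in either direction. The counts of the marker groups were 4 higher and 6 lower in EOM and 3 higher and 6 lower in TA. Arntl, which encodes the activator BMAL1, had log2 fold changes of 3.35 ± 0.19 in EOM (adjusted p = 0.000129) and 2.30 ± 0.11 in TA (adjusted p = 7.46e-08), and Per2, an inhibitor of it, −3.44 ± 0.20 (adjusted p = 0.000129) and −2.35 ± 0.16 (adjusted p = 1.81e-06). Nr1d1, another core gene, went opposite to Per2. It read 202 and 188.6 CPM in albino TA, against 97.49 to 105.9 CPM in C57BL/6 TA. In EOM it read 168.3 and 176.6 CPM in albino libraries, against 139.9 to 160.6 CPM in C57BL/6 libraries. In CN3 and CN6 together 0 of the 13 were called, and 3 had an unadjusted p under 0.05. The median log2 fold change of the 8 output genes was −1.16 in EOM and −0.80 in TA, beside 0.01 and 0.00 over all genes tested.

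**Figure D3:**
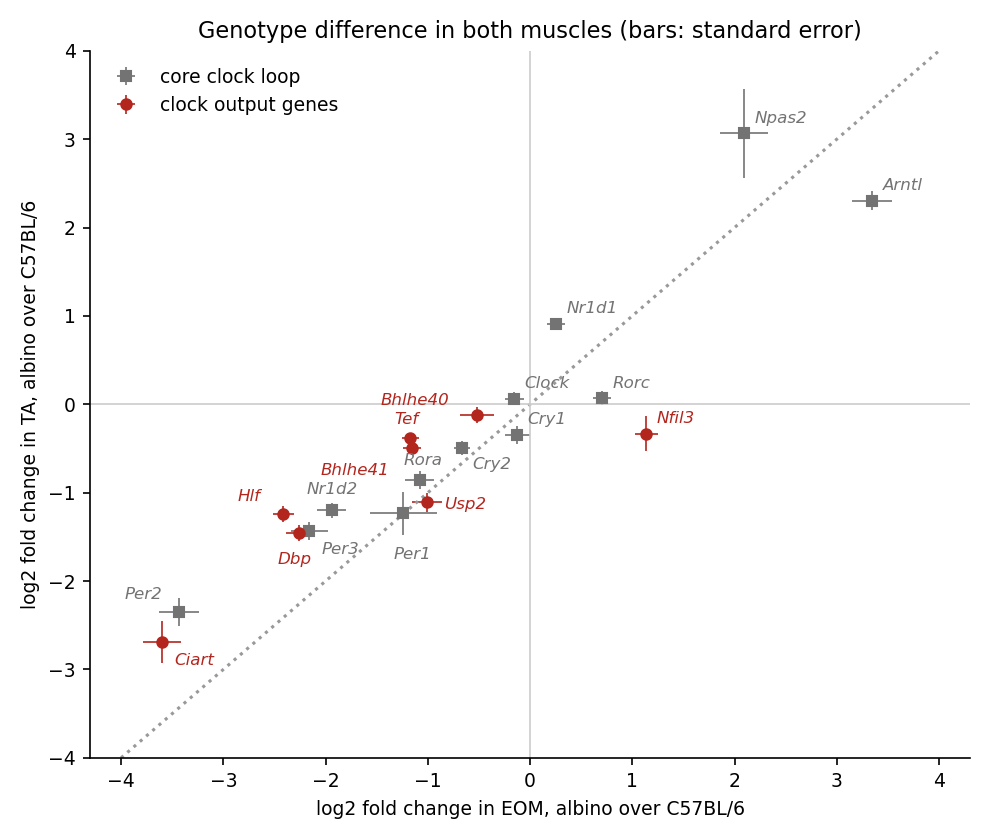
Log2 fold changes of albino over C57BL/6 in EOM (x axis) and TA (y axis), with standard errors, for the 8 output genes (circles) and the 12 core clock genes tested in both muscles (squares). The dotted line marks equal change. Ciart lies next to Per2 at the lower left, Arntl and Npas2 are at the upper right, and Nfil3 is the output gene with a positive value in EOM.

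Other genes of the pathway were counted too, and these counts are to be read against the 32% of all genes called in EOM and 31.1% in TA. In EOM the 2 of 7 clock protein regulators and the 3 of 7 bZIP factors described here are near that share. In TA both lists stand above the share of 31.1%, by the counts given below, on 6 and 7 genes tested. In the marker groups, where 38.9% of genes were called in EOM, 1 of these 7 regulators was higher and 3 were lower. Of the 7 bZIP factors 3 were higher and 0 lower there. Of 7 further clock-controlled transcripts, 1 was higher and 4 were lower in albino EOM, and 2 were higher and 4 lower in albino TA. Wee1, a kinase that restrains mitosis, had log2 fold changes of −2.17 ± 0.25 in EOM (adjusted p = 0.000982) and −1.55 ± 0.24 in TA (adjusted p = 0.000492), while Cdkn1a, an inhibitor of cell cycle kinases, was 1.21 ± 0.12 (adjusted p = 0.000538) and 1.02 ± 0.18 (adjusted p = 0.000977) higher. Of 9 glucocorticoid-responsive genes, 1 was higher and 5 were lower in EOM, and 0 were higher and 5 lower in TA. Tsc22d3, a mediator of glucocorticoid action, stood at −1.20 ± 0.17 in EOM (adjusted p = 0.00175) and −0.93 ± 0.16 in TA (adjusted p = 0.000794), and Fkbp5, a chaperone partner of the receptor, at −1.23 ± 0.15 in EOM (adjusted p = 0.00111) and, not called, −0.62 ± 0.28 in TA (adjusted p = 0.108). Of 7 regulators that modify or degrade clock proteins, 0 were higher and 2 lower in EOM, and of 6 tested in TA 1 was higher and 2 were lower. Gsk3b, a clock kinase, was at −0.87 ± 0.10 in EOM (adjusted p = 0.000864) and −0.63 ± 0.11 in TA (adjusted p = 0.00116). Of 7 other bZIP factors of the C/EBP and ATF kind, 3 were higher and 0 lower in EOM. Atf5, a stress-responsive member, was 0.68 ± 0.09 higher there (adjusted p = 0.00145). In TA 3 of these 7 were higher (1 in the marker groups) and 2, Cebpb and Cebpd, were lower. By the marker groups, 1 clock-controlled transcript was higher and 4 were lower in each muscle. Of the glucocorticoid-responsive genes, 1 was higher and 5 were lower in EOM there, and 0 were higher and 6 lower in TA. The regulators in TA kept 1 higher and 2 lower. Tsc22d3 also stands in the list of clock-controlled transcripts, and Cebpd in that of glucocorticoid-responsive genes. Per1 stands both in the core loop and among the glucocorticoid-responsive genes. In CN3 and CN6 together 0 genes of these 4 lists were called, with 2 to 5 per list at an unadjusted p under 0.05, a level that 2276 of all 16604 genes passed. Where the marker groups called 5.1% of genes, Btrc and Fbxw11 were called higher and Ddit3 lower.

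In C57BL/6 alone, the tissues differed in which output genes they held. Per kilobase of exon, Tef had the highest mean level of the 8 in TA, CN3 and CN6, and Usp2 in EOM, at 61.5 ± 3.43 CPM per kb beside 56.2 ± 2.38 for Tef (SD, n = 4 each). In TA Tef was at 68.5 ± 1.97 and Usp2 at 57.7 ± 4.69 CPM per kb, and in CN6 Tef was at 36.8 ± 4.23 and Usp2 at 5.43 ± 1.24. Hlf, which came last in TA at 4.80 ± 0.23 CPM per kb, was second in CN3 at 21.5 ± 6.86. Ciart stayed between 6.41 ± 0.48 CPM per kb in EOM and 7.925 ± 1.496 in CN3. These levels are scaled by library totals alone. After the TMM scaling used in the tests, Ciart was higher in TA than in CN3 (log2 difference 0.78) and CN6 (0.97), and lower in EOM than in TA (−0.75).

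**Figure D4:**
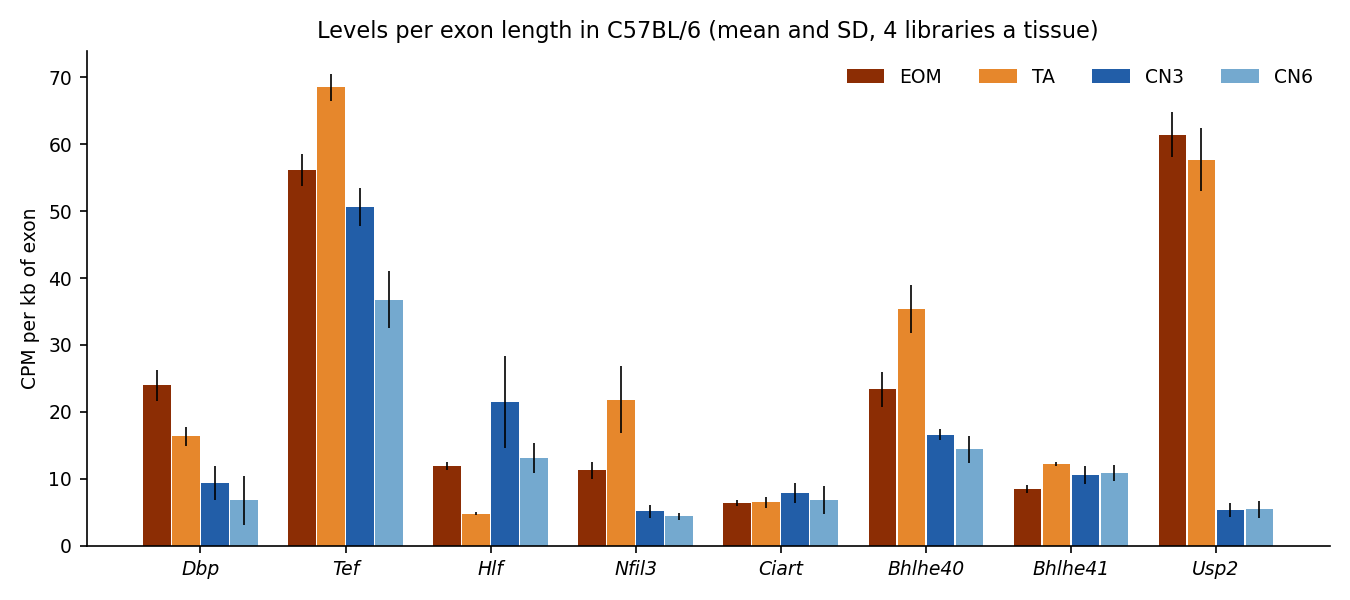
Levels of the 8 genes in C57BL/6 as CPM per kilobase of exon (y axis, from 0), as mean and SD of 4 libraries for EOM, TA, CN3 and CN6. CPM is scaled by library totals alone. Usp2 stands at 61.5 and 57.7 CPM per kb in EOM and TA and at 5.35 and 5.43 in CN3 and CN6, while the means of Ciart lie between 6.41 and 7.93.

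Muscle differed from brain in all 8 genes, where 88.8% of 16670 genes were called. Usp2 had the largest difference of the 8, with 286 to 321 CPM in EOM and 260 to 310 CPM in TA against 21.1 to 32.1 CPM in CN3 and 21.2 to 34.2 CPM in CN6 (log2 fold change 4.16 ± 0.10, adjusted p = 4.71e-17). Nfil3 (2.41 ± 0.12, adjusted p = 7.98e-13), Dbp (2.01 ± 0.20, adjusted p = 2.62e-08), Bhlhe40 (1.59 ± 0.07, adjusted p = 1.39e-13) and Tef (1.21 ± 0.05, adjusted p = 8.06e-14) were also higher in muscle. Hlf was lower (−0.45 ± 0.11, adjusted p = 0.000717). Scaling matters for the smallest differences: with library totals alone, without TMM factors, Ciart and Bhlhe41, at 0.50 ± 0.13 (adjusted p = 0.00122) and 0.62 ± 0.06 (adjusted p = 2.12e-08) after TMM, turned to −0.19 and −0.07 and were not called. The other 6 kept direction and call, at 3.47 for Usp2, 1.72 for Nfil3, 1.32 for Dbp, 0.90 for Bhlhe40, 0.52 for Tef and −1.15 for Hlf. The median over all genes was −0.13 with TMM and −0.81 with library totals, and 46.6% and 30% of the called genes were higher in muscle.

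EOM differed from TA in 7 of the 8 genes, where 74.1% of genes were called. After TMM scaling Hlf was higher in EOM (0.58 ± 0.15, adjusted p = 0.00269). Nfil3 (−1.69 ± 0.16, adjusted p = 3.94e-08), Bhlhe40 (−1.33 ± 0.10, adjusted p = 1.24e-09), Bhlhe41 (−1.27 ± 0.09, adjusted p = 6.39e-10), Tef (−1.02 ± 0.07, adjusted p = 8.3e-10), Ciart (−0.75 ± 0.18, adjusted p = 0.00133) and Usp2 (−0.64 ± 0.13, adjusted p = 0.000255) were lower in EOM. Dbp was not called (−0.18 ± 0.27, adjusted p = 0.557). The TMM factors were 1.02 to 1.06 in C57BL/6 EOM and 0.621 to 0.627 in C57BL/6 TA, and with library totals alone Ciart (−0.01) lost its call, Usp2 turned to 0.09 without a call and Dbp to 0.55. With that setting 88.3% of called genes were higher in EOM, against 55.7% with TMM, and the median over all genes was 0.89 against 0.16. Hlf, Nfil3, Bhlhe40, Bhlhe41 and Tef kept direction and call under both, but with library totals their differences were 1.31, −0.96, −0.60, −0.54 and −0.29.

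In order of level after TMM scaling, Usp2, Nfil3, Tef and Bhlhe40 ran from TA through EOM to CN3 and CN6. For Usp2, Nfil3 and Bhlhe40, CN3 and CN6 were not called apart. Dbp ran from the muscles, which were not apart, to CN3 and CN6, which were not called apart by edgeR (0.44 ± 0.28, adjusted p = 0.285) but were by limma voom (0.80, adjusted p = 0.0384). Ciart was highest in TA, and EOM was not apart from CN3 (0.04 ± 0.18, adjusted p = 0.853) or CN6 (0.22 ± 0.18, adjusted p = 0.253). Scaled by library totals, the highest mean of Ciart was instead that of CN3. Bhlhe41 was highest in TA, and EOM differed from neither CN3 (0.03 ± 0.09, adjusted p = 0.754) nor CN6 (−0.05 ± 0.09, adjusted p = 0.597) by more than its error. Hlf ran from CN3 through EOM and CN6 to TA, with EOM and CN6 not apart (0.17 ± 0.15, adjusted p = 0.289). Between the brain samples, CN3 was higher than CN6 in Hlf (0.67 ± 0.15, adjusted p = 0.00392) and Tef (0.42 ± 0.07, adjusted p = 0.00045), and 6 genes were not called, where 21.5% of genes were. The 6 motor neuron markers summed to only 4.21 to 7.34 CPM in C57BL/6 CN3, against 82.4 to 172 CPM in C57BL/6 CN6. Their part in this was not tested.

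Across the 24 libraries with matching labels, after subtracting each tissue's mean log2 CPM, the members other than Nfil3 followed each other, with Pearson's r from 0.66 (Hlf and Bhlhe40) to 0.94 (Ciart and Usp2). Nfil3 ran against them, from −0.37 with Usp2 to −0.68 with Bhlhe41. Each tissue's mean was taken over both strains, so the strain differences given above remain in these values and in the rankings below. In TA the strain difference of Nfil3 had the same sign as theirs (−0.33, not called). These libraries share genotype groups and depth, so the values describe this set only. Of 13910 genes ranked by the same measure, the genes most like Ciart were Per2 (r = 0.99) and Nr1d2 (0.97), those most like Dbp were Per3 (0.94) and Cry2 (0.93), and those most like Bhlhe41 were Ctcf (0.95) and Per3 (0.94). Hivep2 and Per3 came first for Tef (0.94 and 0.92), Cdk13 and Timp3 for Hlf (both 0.95) and Osbp and Per1 for Usp2 (both 0.94). Bhlhe40 and Nfil3 had more distant neighbours, Abcc1 at 0.84 and Adcy8 at 0.88.

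Some members share exon bases with a gene on the opposite strand, which matters because the strand setting of the counting was not given. Dbp shares 539 bases with Sphk2 and Bhlhe40 shares 118 with 0610040F04Rik, and reads from these stretches cannot be told apart. Bhlhe41 shares 1280 bases with Gm43909, Tef 193 with Gm17597 and Usp2 200 with Gm49380, which have no row in the table.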

How the data were processed

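RNA was sequenced from 4 tissues of 2 mouse strains. The authors deposited 1 table of raw read counts per gene. Per the submitters' processing notes, Trimmomatic 0.33, FastQC, HISAT2 2.1.0, featureCounts and edgeR were used with build mm10. The gene annotation, strand setting and filters are not given in the sources used here. CPM was computed here from the deposited counts and library totals. Groups follow the labels, less 8 albino libraries whose muscle or brain markers contradict their label, and the marker groups add those 8 by the listed rule. Genes were filtered with filterByExpr, scaled by TMM and tested with edgeR's quasi-likelihood test (edgeR 4.0.16, R 4.3.3), with Benjamini-Hochberg adjustment over all genes tested and a threshold of 0.05. The SE is the log2 fold change over the square root of F. The script was tested on simulated data. Alternatives used DESeq2 1.42.0, limma 3.58.1 (voom), other scalings, no filter, a replicate block, offsets for GC content and length, 1 fit over all tissues, the labels as given and each library left out. All 8 genes are named throughout, with up to 4 genes per list by adjusted p and the 5 genes most correlated with each (prior count 2, mean CPM of at least 1). Genes, lists and groups were chosen with earlier results of these data known. Positions are from GENCODE M21. The number of counts limits the precision of low genes such as Ciart. No pair of libraries held identical counts. In the table, 27 gene names were dates, with at most 0.309% of a library's counts, and name none of the 8 genes.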

Additional observations from a re-analysis of the deposited data

Results flagged for a closer look

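Among 64 groups of 4 libraries (8 genes, marker groups), 5 held a library far from the other 3, and chance gives about 1 in 20 groups. Tef read 216.8 CPM in the library labelled albino CN3 3, placed in EOM by markers, where the others read 192 to 196 CPM. Tef read 515.6 CPM in C57BL/6 TA 2, where the others read 544.7 to 547.9 CPM. Ciart read 3.15 CPM in albino TA 4, where the others read 1.26 to 1.51 CPM. Usp2 read 31.8 CPM in the library labelled albino TA 1, placed in CN6 by markers, where the others read 24.2 to 24.8 CPM. In C57BL/6 EOM 3, Usp2 read 320.8 CPM, where the others read 286 to 289.2 CPM.

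The genotype difference itself differed between EOM and TA by a test of the interaction, on the log2 scale, for Dbp (−0.81), Tef (−0.79), Hlf (−1.18), Nfil3 (1.46) and Bhlhe41 (−0.67). Between muscle and brain, where albino libraries differ in number too, it differed for Dbp (−1.20), Tef (−0.52), Hlf (−1.76), Ciart (−2.60), Bhlhe41 (−0.55) and Usp2 (−0.85).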

How the results depend on the processing

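With 2 albino libraries per tissue, small differences could not be told from the spread, and the cause of the changes below was not tested unless stated. The fold changes below are log2, and "together" means CN3 and CN6 in 1 comparison. In EOM and TA none of the 8 genes turned its sign in the alternatives run, the labels as given included, other than Bhlhe40 in TA without albino TA 3. The call of Bhlhe40 in EOM was lost with GC and length offsets, added after seeing the data (adjusted p = 0.0878), and that of Dbp for the strain difference between EOM and TA in 1 fit over all tissues (adjusted p = 0.28).

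Genes called by DESeq2 were 101 in CN3, 106 in CN6, 365 together and 1924 for the strain difference between EOM and TA. In the marker groups they were 45, 19, 833 and 1988, and Bhlhe40 in CN3 was 0.0173, Usp2 in CN6 0.0021 and Hlf together −0.0105. With 1 fit over all tissues 49, 12 and 94 genes were called in CN3, CN6 and together, with Nfil3 in CN3 at −0.0072 and Hlf together at −0.0115. With voom they were 20, 8 and 37, with Hlf and Bhlhe40 in CN6 at 0.0374 and 0.0145, Nfil3 together at 0.0029 and, between CN3 and CN6 in C57BL/6, Usp2 at 0.0111 and Dbp at 0.80, called (adjusted p = 0.0384). Without a filter 21 were called in CN3 and 21 in CN6. The GC and length offsets left 2058 called genes in EOM, and Hlf was −0.0011 in CN3 and −0.0081 together. Upper quartile factors gave Nfil3 together 0.0022, and moved the share of called genes that were higher to 58.3% in TA, against 47.2%, and to 42.1% for the strain difference between EOM and TA, against 28.9%. Library totals alone gave Dbp 0.55 and Usp2 0.0916 for EOM against TA in C57BL/6, and Ciart −0.19 and Bhlhe41 −0.0671 for muscle against brain in C57BL/6.

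With the labels as given, which mixes muscle and brain, genes called were 1 in EOM, 18 in TA, 0 in CN3, 0 in CN6, 2976 together, 33 for the strain difference between EOM and TA and 11751 for that between muscle and brain. Of the 8 genes 1 was called in EOM, 0 in TA, 2 together and 0 for the strain difference between EOM and TA. Signs turned in CN3 for Hlf (−0.747), Bhlhe40 (0.0185) and Usp2 (1.63), and in CN6 for Dbp (0.154), Tef (0.937), Nfil3 (1.79), Bhlhe40 (1.19), Bhlhe41 (0.499) and Usp2 (2.17). Together they turned for Tef (0.263), Hlf (−0.672), Nfil3 (1.82), Bhlhe40 (0.573) and Usp2 (1.86). For the strain difference between EOM and TA they turned for Tef (0.0431), Hlf (0.0945), Ciart (0.508), Bhlhe40 (0.188) and Bhlhe41 (0.275), and for that between muscle and brain for Hlf (0.402) and Nfil3 (−2.21).

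The labels do not say that a replicate number marks a shared animal or day, and the libraries' deviations from their group means do not settle it. Same-numbered pairs correlated at −0.139 to 0.242 within a strain (6 of 28 over 0.1) and at −0.209 to 0.300 within a tissue (3 of 8). All 4 albino pairs were over 0.1, at 0.242 for CN3 and CN6 and 0.224 for EOM and TA, where groups of 2 make the pairs mirror each other. Of 48 cases of a C57BL/6 library set against another tissue, the best match had the same number in 14. With a replicate block 2641 genes were called in EOM, 5 in CN3 and 0 in CN6, and 2 of the 8 genes together, Dbp (−1.02, adjusted p = 0.0284) and Ciart (−0.74, adjusted p = 0.0342). Under the block Hlf was −0.0366 in CN3 and −0.136 together, and Nfil3 0.113 in CN6 and 0.160 together. The block also called Nfil3 lower in TA (−0.59, adjusted p = 0.00677) and Bhlhe40 for the strain difference between EOM and TA (−0.42, adjusted p = 0.0297), and Dbp for that between muscle and brain was not called (−0.73, adjusted p = 0.0655). It changed no other call of the 8 genes.

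Leaving out 1 library at a time, called genes ran from 2738, reached when albino EOM 3 was dropped, to 4811 in EOM. In TA the range was 2484, reached when albino TA 3 was dropped, to 3849. They ran from 2 (without albino CN3 2) to 12 in CN3, 4 to 950 (without albino CN6 2) in CN6 and 31 (without albino CN6 1 or albino CN3 2) to 344 (without albino CN6 2) together. For the strain difference between EOM and TA they ran from 591 (without albino EOM 3; 605 and 593 without albino TA 3 and 4) to 1351. Fold changes that crossed 0 ran from −0.279 to 0.0341 (Bhlhe40 in TA), −0.108 to 0.133, −0.0878 to 0.279 and −0.192 to 0.0941 (Nfil3, Hlf and Bhlhe40 in CN3), −0.262 to 0.191, −0.0972 to 0.0152, −0.183 to 0.0444 and −0.088 to 0.0712 (Hlf, Bhlhe40, Usp2 and Nfil3 in CN6), −0.115 to 0.130, −0.0653 to 0.0604 and −0.119 to 0.0288 (Hlf, Nfil3 and Bhlhe40 together), −0.248 to 0.353 (Usp2, strain difference between EOM and TA) and −0.167 to 0.0881 (Usp2, CN3 against CN6 in C57BL/6).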
